A study of Mus musculus with 18 samples.

Results

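The organizer of the mouse gastrula was followed through 9 genes, chosen by name from the 22997 nuclear genes of the deposited tables: the transcription factor genes Noto, Lhx1 and Gsc, the signal gene Shh, and the genes of the secreted antagonists Chrd, Nog, Fst, Cer1 and Dkk1. All 9 were present in the tables. They were measured in single cells of untreated C57BL/6 WT embryos of 2 ages, embryonic day (E) 6.75 and E7.5. At E6.75 the extraembryonic part was cut away, each embryo was dissociated alone, and cells were picked by hand into 6 libraries processed with CEL-Seq2. At E7.5 the embryos were cut under the chorion, which kept extraembryonic mesoderm, those of 1 or 2 litters were pooled, and cells were flow sorted into 12 libraries processed with mCEL-Seq2, a small-volume version of the method. Both methods count tagged RNA 3' ends by unique molecular identifier. Stage, dissection, pooling, cell collection and protocol changed together, so their parts in a difference between the stages cannot be told apart.

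The organizer is the group of cells at the anterior end of the primitive streak, and later the node, that lays down the axial mesoderm (prechordal plate and notochord) and patterns the tissues around it. It acts largely by secreting proteins that hold ligands away from their receptors. Chordin (Chrd) and noggin (Nog) bind bone morphogenetic proteins (BMPs), follistatin (Fst) binds activins and some BMPs, cerberus (Cer1) binds NODAL and BMPs, and DKK1 blocks the LRP co-receptors of WNT. The anterior visceral endoderm, an extraembryonic layer, is another known source of Cer1 and Dkk1 and also uses Lhx1 and Gsc. T (brachyury) marks the primitive streak and the notochord, Foxa2 the anterior streak, node and endoderm, and Mesp1 the nascent mesoderm, and these genes are used below to place a cell. On GRCm38 the GENCODE annotation puts Noto at chr6:85423886-85428877, Chrd at chr16:20733127-20742384 (both + strand), Shh at chr5:28456815-28467256, Nog at chr11:89300638-89302332 and Fst at chr13:114452290-114458951 (all - strand); the build of the deposited tables is not given in the sources used here.

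A cell was kept with at least 2000 nuclear transcripts in 1 of the 96 barcodes used per library. This left 543 cells at E6.75, 85 to 96 per library, and 429 cells at E7.5, 15 to 71 per library in 11 libraries. E7.5 replicate 5 had 0 kept cells and entered nothing. The kept cells of a library summed to between 2921862 and 5493791 transcripts at E6.75 and between 488908 and 2618539 at E7.5, with medians of 39348 and 31203 per cell. Visceral endoderm cells, found by 16 markers that include none of the 9 genes, numbered 48 at E6.75 and 2 at E7.5. Their markers summed to between 152 and 968 counts per 1000000 transcripts (CPM) of a library at E6.75 and to between 7.29 and 390 CPM at E7.5. The labels do not tie a library to an embryo or litter. The p-values here therefore measure at most the spread between libraries, and not that between embryos or litters.

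Noto, a homeobox gene of the node and notochord, had 0 transcripts in the 6 E6.75 libraries. A count of 0 in 543 cells allows a share of up to 0.552% of cells with a transcript. At E7.5 it was found in 13 cells of 4 libraries, replicates 1, 2, 3 and 4, with levels of 4.27, 7.64, 3.65 and 7.46 CPM, and at 0 in the other 7. Summed over each stage, Noto was at least 26.0-fold higher at E7.5 than the 3 transcripts that a count of 0 allows over the E6.75 libraries. Shh, the hedgehog signal of the node and notochord, was found in 1 cell at E6.75 and in 7 cells of 5 libraries at E7.5, at 0.948, 1.22, 2.24, 0.589 and 9.53 CPM in replicates 1, 3, 4, 7 and 11. The single E6.75 cell was a visceral endoderm cell with 1 Shh transcript beside 96 of Lhx1, 12 of Dkk1 and 6 of Gsc.

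Gsc, a homeobox gene of the organizer, had its higher median at the earlier stage. Its level at E6.75 ran from 1.98 to 34.0 CPM with a median of 6.25 (n = 6), and at E7.5 from 0 to 20.1 CPM with a median of 1.36 (n = 11). The E7.5 libraries lay at or below 3.04 CPM apart from replicates 6 and 9, at 20.1 and 8.18 CPM, and the ranges overlapped. Lhx1, a LIM homeobox gene required for head formation, ran from 3.79 to 157 CPM at E6.75 (median 34.3) and from 1.61 to 232 CPM at E7.5 (median 49.3), and the libraries of both stages covered nearly the same span. E6.75 replicates 2_13 and 2_14 held most of the early signal, with 40.1% and 44.1% of all Gsc transcripts of that stage and 40.7% and 44.1% of those of Lhx1. The same libraries held 66.2% and 32.0% of the Mesp1 transcripts and the highest levels of T, at 160 and 159 CPM against 18.4 to 28.1 CPM in the other 4.

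The antagonists were higher at E7.5. Nog ran from 0.291 to 1.93 CPM at E6.75 (median 0.877) and from 1.48 to 28.3 CPM at E7.5 (median 6.14), with a small overlap. Cer1 ran from 0.342 to 12.4 CPM (median 5.72) and from 1.48 to 113 CPM (median 33.8), with E7.5 replicate 10 alone inside the early range. Chrd ran from 0.583 to 6.37 CPM (median 2.26) and from 0 to 40.4 CPM (median 5.44), and the groups overlapped. Fst, the most widely detected of the 9, ran from 49.4 to 178 CPM (median 63.5) and from 103 to 606 CPM (median 310), while Dkk1 ran from 0.661 to 9.91 CPM (median 6.29) and from 1.61 to 105.6 CPM (median 18.6), both with overlap.

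**Figure D1:**
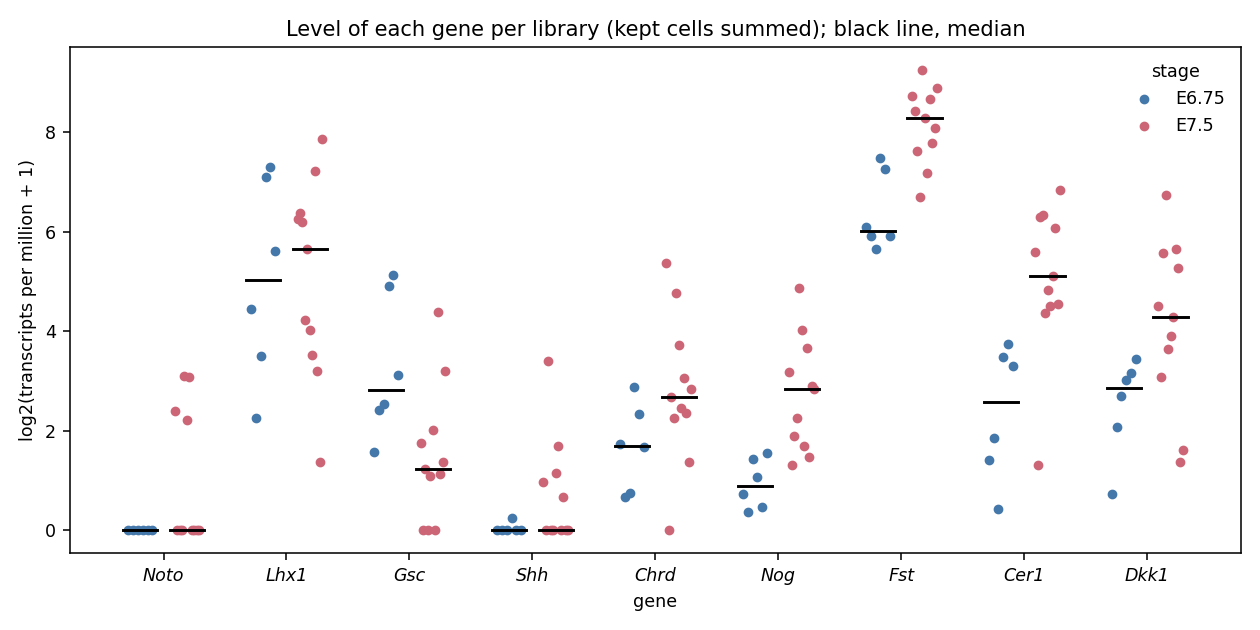
Level of each gene in each library as log2(CPM + 1), with 6 E6.75 libraries in blue and 11 E7.5 libraries in red, and the median as a black line. Noto is at 0 in all E6.75 libraries, Lhx1 spans 3.79 to 157 CPM at E6.75 and 1.61 to 232 CPM at E7.5, and Nog, Fst, Cer1 and Dkk1 have higher medians at E7.5.

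The stages were compared with edgeR's quasi-likelihood test on transcripts summed per library (Benjamini-Hochberg adjustment over 9998 genes, threshold 0.05). Of the 9 genes, 6 passed the filter on low counts, and 5 of these were higher at E7.5, beside 38.8% of all genes tested that were called in either direction. The log2 fold change was 3.07 (SE 0.58, edgeR adjusted p = 0.000279) for Nog, 2.72 (SE 0.53, adjusted p = 0.000373) for Cer1 and 2.20 (SE 0.55, adjusted p = 0.0034) for Dkk1. It was 1.97 (SE 0.58, adjusted p = 0.0102) for Chrd and 1.69 (SE 0.33, adjusted p = 0.000423) for Fst. Lhx1 had -0.13 (SE 0.67, adjusted p = 0.902). Without visceral endoderm cells the values were 6.40 for Cer1, 3.06 for Dkk1 and 0.69 for Lhx1. Chrd dropped under the filter on low counts without E7.5 replicate 1 or 2, and Nog without replicate 1, 2, 3, 6, 8 or 9, so neither could be tested there. In such sums, fewer cells with a gene and less RNA per cell cannot be told apart. With only the E6.75 libraries whose number begins with 2, Chrd was at 1.69 and lost its call. In a fit with no filter, edgeR gave Gsc -2.30 (SE 0.56, adjusted p = 0.00243), Shh 3.58 (SE 0.95, adjusted p = 0.00539) and Noto a call as well. With those, 8 of 9 were called against 20.4% of all genes, while DESeq2 on the same unfiltered sums called 6, and neither Gsc nor Noto.

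Each kept cell was then placed in 1 of 7 classes: visceral endoderm, or, for the others, by whether it held a transcript of T, Foxa2 and Mesp1. Chrd, Nog and Noto at E7.5 stood highest in cells with T and Foxa2 but no Mesp1, of which there were 36. Chrd was detected in 20 of them (55.6%, exact binomial 95% interval 38.1% to 72.1%), at 110 CPM, against 5 of the 116 cells with none of the 3 genes (4.31%, interval 1.41% to 9.77%), at 1.78 CPM. Their median depths were 37498 and 20915 transcripts. Among cells deep enough to be thinned to 10000 transcripts, 30 and 79 of them, the shares were 43.3% and 1.27%. Nog was in 10 of the 36 cells at 55.4 CPM and in 5 of the 116 at 4.98 CPM, and thinned its shares were 13.3% and 2.53%. Noto was in 10 of the 36 at 27.0 CPM and in 0 of the 116 (interval up to 3.13%), and none of the 79 thinned cells of the latter held it. Intervals cover counting error only.

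**Figure D2:**
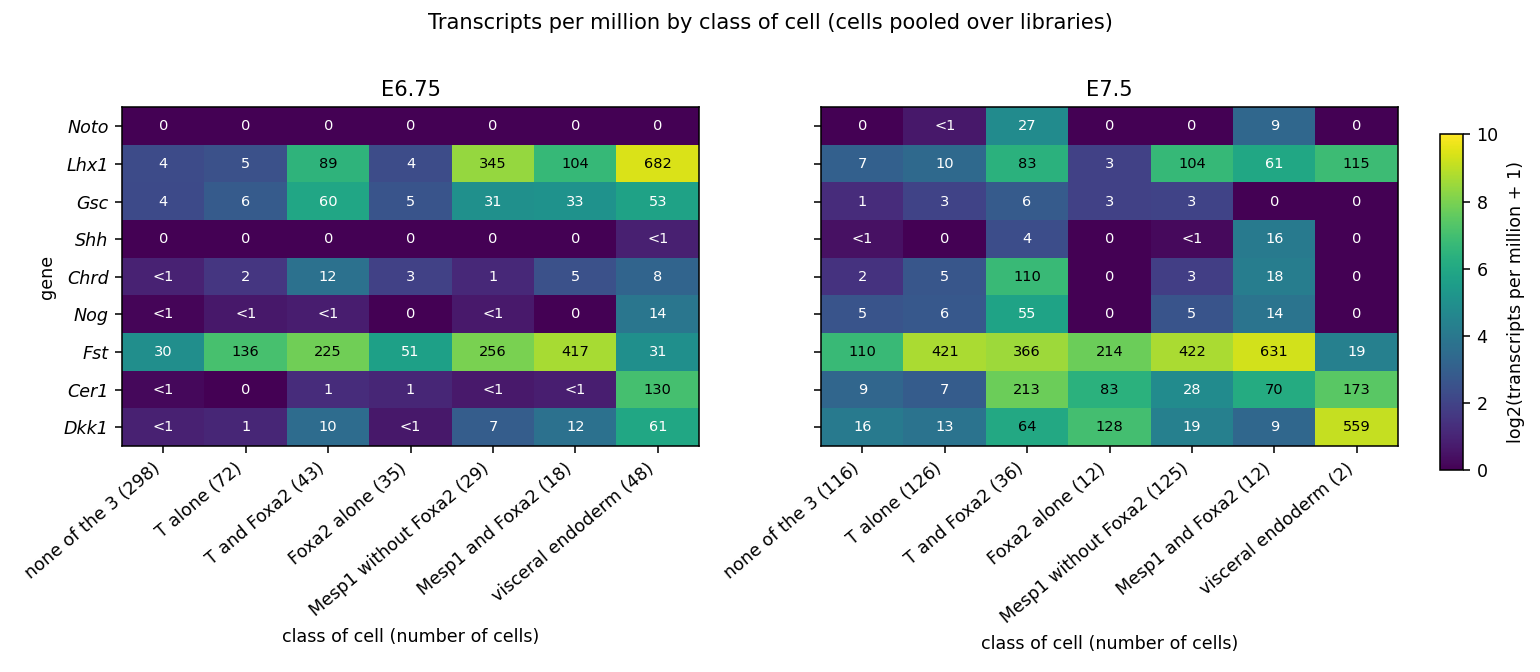
Level in CPM of each gene in each class of cell at E6.75 (left) and E7.5 (right), cells pooled over libraries, with the value printed in each field, the colour on a log2 scale and the number of cells in brackets. Chrd, Nog and Noto at E7.5 stand out in the T and Foxa2 class at 110, 55.4 and 27.0 CPM, and Lhx1 at E6.75 in visceral endoderm cells at 682 CPM and in Mesp1 cells without Foxa2 at 345 CPM.

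Of the 13 cells with Noto, 10 were in the T and Foxa2 class, 2 had T alone and 1 had Mesp1 and Foxa2. All 13 held T, 11 held Foxa2, 12 held Foxj1, the regulator of motile cilia that the node uses, 11 held Chrd, 9 held Nog and 3 held Shh. Only 1 held Mesp1, with 8 transcripts. One cell of replicate 1 had 6 transcripts of Noto, 75 of Foxj1, 186 of T, 72 of Foxa2 and 32 of Chrd among 51486. The 2 cells without Foxa2, both from replicate 2, had 1 Noto transcript each, 3 and 1 of T, and 55 and 40 of Fst. Replicate 2 gave 8 of the 13 cells and 44.4% of the Noto transcripts. Of the 7 E7.5 cells with Shh, 5 held Foxa2, 6 held T, 5 held Chrd and 3 held Noto. The highest Shh count, 7 transcripts, came from a replicate 11 cell with Foxa2 and 23 transcripts of Cer1 but with Noto and Foxj1 at 0.

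**Figure D3:**
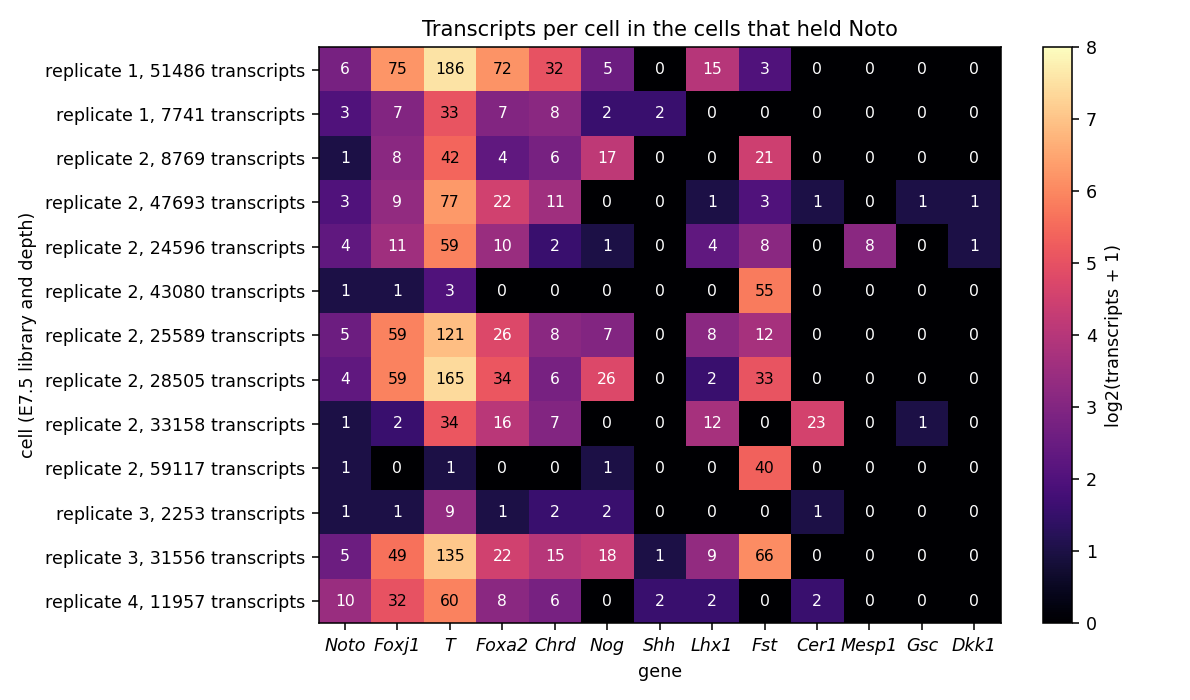
Transcripts of 13 genes (columns) in the 13 E7.5 cells that held Noto (rows, with library and total transcripts); the number is the count and the colour its log2 value after adding 1. T is present in each row, Foxj1 in 12 and Foxa2 in 11, while the rows with 3 and 1 transcripts of T lack Foxa2 and Chrd.

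Cells with and without Foxa2 were compared within libraries, with the library as a term in edgeR and visceral endoderm cells left out. At E7.5, 9 libraries had at least 3 cells on each side (58 cells with Foxa2, 331 without). Cer1 ran from 42.4 to 464 CPM in Foxa2 cells (median 208) and from 0.788 to 32.1 CPM in the others (median 9.17), with no overlap and higher in 9 of 9 libraries. How many of all genes had ranges apart was not counted, here or in the comparisons below. Lhx1 ran from 0 to 234 CPM (median 69.5) and from 2.29 to 144 CPM (median 9.0), higher in 8 of 9. Of 3 of the 9 genes that passed the filter, both were higher, beside 1.81% of 6457 genes called higher and 2.51% in either direction. The log2 fold change was 4.08 (SE 0.39, edgeR adjusted p = 3.58e-08) for Cer1 and 1.18 (SE 0.27, adjusted p = 0.0115) for Lhx1, and 0.31 (SE 0.19, adjusted p = 0.591) for Fst. Lhx1 lost its call without E7.5 replicate 1, at 1.12, and without the library term, at 0.84.

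Chrd, Nog, Shh and Noto were under that filter, so their counts are given first. Foxa2 cells held 167 transcripts of Chrd and the others 35, in 23 and 22 cells. For Nog these were 86 and 56 transcripts, for Noto 43 and 2, and for Shh 13 and 2. Chrd was higher in Foxa2 cells in 6 of 9 libraries, at a median of 33.7 CPM against 2.29, and Nog also in 6 of 9. With no filter, edgeR gave log2 fold changes of 4.37 (SE 0.35) for Chrd, 2.55 (SE 0.38) for Nog, 6.28 (SE 0.73) for Noto and 4.35 (SE 1.07) for Shh, and called 7 of the 9 genes beside 3.3% of all. Shh lost its call without replicate 11 (edgeR adjusted p = 0.117). DESeq2 on the same unfiltered sums called 3, namely Cer1, Lhx1 and Chrd. Removing the filter can lower the p-value of a gene that was already tested: Fst in T cells at E6.75 went from an edgeR adjusted p of 2.43e-10 to 7.84e-146 at nearly the same fold change. Calls made only in the unfiltered edgeR fit are therefore given beside DESeq2.

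Among cells with T, those with Foxa2 were set against those without, in 7 libraries at E7.5 (45 and 182 cells). Cer1 ran from 76.6 to 470 CPM against 0 to 23.6 CPM, with no overlap, and Lhx1 from 8.98 to 184 CPM against 10.1 to 86.4 CPM. Both were higher, of 3 tested and beside 1.61% of 6198 genes, at 4.62 (log2, SE 0.40, edgeR adjusted p = 1.81e-08) and 1.32 (SE 0.32, adjusted p = 0.0225). Lhx1 lost this call with DESeq2, without the library term and without replicate 1 or 4, at 1.41, 1.33, 1.09 and 1.33. With no filter, Chrd gave 4.73 (SE 0.36) and Nog 3.37 (SE 0.42), and DESeq2 called both. That fit called 7 of the 9 genes, beside 2.65% of all. Noto at 6.00 and Shh at 4.45 were called there by edgeR alone, and Shh lost the call without replicate 1, 3, 4 or 11 (edgeR adjusted p of 0.059 to 0.28). Chrd transcripts were 167 in the 45 cells and 24 in the 182.

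At E6.75 Gsc and Fst were the genes higher in cells with Foxa2. Gsc in Foxa2 cells ran from 0 to 83.9 CPM (median 12.97) and in the others from 0.773 to 15.1 CPM (median 4.0), higher in 5 of 6 libraries (96 and 399 cells). Fst ran from 14.4 to 283 CPM (median 135) and from 23.1 to 117 CPM (median 63.4), also higher in 5 of 6 and overlapping. By edgeR, Gsc differed by 1.99 (log2, SE 0.30, adjusted p = 0.00111) and Fst by 1.25 (SE 0.19, adjusted p = 0.00111). These were 2 of 3 genes tested, beside 0.197% of 9655 called higher. Lhx1 had 0.24 (SE 0.29, adjusted p = 0.992). Both calls were lost without the library term, at 2.26 for Gsc and 1.28 for Fst, that of Fst also with DESeq2, at 0.97, and Gsc was under the filter without replicate 2_13 or 2_14. Chrd was in 20 of 96 Foxa2 cells and 17 of 399 others, with 45 and 20 transcripts. Its unfiltered log2 fold change was 2.19 (SE 0.51, edgeR adjusted p = 0.00698), in a fit that called 0.451% of all genes and in which DESeq2 gave Chrd no adjusted p.

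Among T cells at E6.75 the same split left Gsc as 1 of only 4 genes called of 6736, which is 0.0594%, and the only one called higher (0.0148%). Its levels in cells with T and Foxa2 were 3.55, 12.4, 19.9, 44.2 and 135 CPM in replicates 1_10, 2_9, 2_12, 2_13 and 2_14. In T cells without Foxa2 they were 0, 7.36, 3.43, 26.8 and 21.0 CPM. Each library was higher in the cells with both, although the ranges overlapped. The log2 fold change was 1.76 (SE 0.31, edgeR adjusted p = 0.0143). DESeq2 and the fit without the library term gave 1.66 and 1.60 and did not call it, and without replicate 2_13 or 2_14 it was under the filter. In this split Fst had 0.51 (SE 0.17, edgeR adjusted p = 0.706) and Lhx1 -0.38 (SE 0.38), with no call. The level of Fst was 225 CPM in cells with T and Foxa2, 136 CPM with T alone, 50.9 CPM with Foxa2 alone and 29.8 CPM with none of the 3 genes. By class, Gsc was in 26 of 43 cells with T and Foxa2 (60.5%, 59.9 CPM, median depth 67623) and in 30 of 298 cells with none of the 3 genes (10.1%, 3.76 CPM, median depth 33673). Thinned to 10000 transcripts, the shares were 26.2% and 5.29%. Gsc was as often found in cells with Mesp1. It was in 16 of 29 with Mesp1 but no Foxa2 (55.2%) and in 11 of 18 with Mesp1 and Foxa2 (61.1%). Their thinned shares were 27.6% and 27.8%, although their levels in CPM were lower than with T and Foxa2. Cells with T alone and with Foxa2 alone had lower thinned shares, 11.3% and 3.23%.

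By edgeR, Lhx1 at E6.75 was higher in cells with T or Mesp1. In T cells it ran from 0 to 193 CPM (median 7.09) and in the others from 0.894 to 9.74 CPM (median 4.05), higher in 4 of 6 libraries and overlapping. Fst ran from 112.1 to 309 CPM (median 177) against 21.3 to 46.2 CPM (median 31.6), with no overlap. Over 150 cells with T and 345 without, 3 of 3 genes tested were higher, beside 1.99% of 9722. The log2 fold change was 3.71 (SE 0.36, edgeR adjusted p = 1.11e-07) for Lhx1, 2.62 (SE 0.18, adjusted p = 2.43e-10) for Fst and 2.11 (SE 0.28, adjusted p = 1.84e-05) for Gsc. For Lhx1, DESeq2 gave 1.36 and no call, keeping visceral endoderm cells in gave 0.51 and no call, and without replicate 2_9, 2_13 or 2_14 it was under the filter. Gsc was under the filter without 2_13 or 2_14. A single cell with T and Foxa2 held 218 of the 247 Lhx1 transcripts of its class. The T gate also takes in cells that hold Mesp1. By class, Lhx1 was at 345 CPM in Mesp1 cells without Foxa2, but at 4.53 CPM (14 of 72 cells) with T alone. In cells with none of the 3 genes it was at 3.94 CPM (30 of 298).

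Mesp1 cells could be compared at E6.75 in 3 libraries, replicates 2_9, 2_13 and 2_14 (47 and 199 cells). Lhx1 was at 26.4, 271 and 298 CPM in Mesp1 cells and at 4.88, 11.9 and 60.3 CPM in the others. Fst was at 144, 332 and 424 CPM against 51.9, 119 and 102.2 CPM, with no overlap. Both were higher, of 4 tested and beside 0.856% of 9701 genes, with log2 fold changes of 3.15 (SE 0.31, edgeR adjusted p = 1.77e-05) and 1.71 (SE 0.13, adjusted p = 1.58e-06). Lhx1 lost its call without the library term, at 2.97. Gsc had 0.56 (SE 0.24, adjusted p = 0.498) and Dkk1 1.57 (SE 0.69, adjusted p = 0.509), but without replicate 2_14 Dkk1 was called, at 3.22. Chrd was lower in Mesp1 cells in 3 of 3 libraries, on 8 and 47 transcripts and with no test.

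At E7.5 Mesp1 cells again held more Lhx1, in 11 of 11 libraries: 4.07 to 247 CPM (median 74.8) against 0 to 67.6 CPM (median 11.2), over 137 and 290 cells. It was the 1 gene of 3 tested that was called, beside 3.05% of 6138 genes called higher, and differed by 1.68 (log2, SE 0.26, edgeR adjusted p = 6.25e-05). Cer1 had -0.92 (SE 0.36, adjusted p = 0.15) and Fst 0.50 (SE 0.17, adjusted p = 0.0974). Without replicate 6 both passed, at -1.29 and 0.63. Chrd had 21 transcripts in Mesp1 cells and 184 in the others. Its unfiltered log2 fold change was -2.69 (SE 0.39, edgeR adjusted p = 4.69e-10), called by DESeq2 too. With no filter 4 of 9 genes were called, beside 4.49% of all.

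T cells at E7.5 (282 against 145 without T, 11 libraries) held more Fst in 11 of 11 libraries, 111 to 620 CPM (median 375) against 11.4 to 428 CPM (median 81.9). Fst was the 1 gene of 3 called, beside 1.43% of 6022 called higher and 2.14% in either direction, and differed by 1.76 (log2, SE 0.24, edgeR adjusted p = 2.54e-05). Cer1 had 0.99 (SE 0.45, adjusted p = 0.417) and Lhx1 0.31 (SE 0.41, adjusted p = 0.898). Without a filter edgeR called 4 of 9 genes, beside 1.75% of all, and DESeq2 called Fst alone. Chrd had 200 transcripts in T cells and 5 in the others, and Noto 45 and 0.

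Whether these differences changed between the stages was tested with an interaction term. For T, Lhx1 was the 1 gene of 4 tested that was called, with a difference of -3.39 on the log2 scale (SE 0.71, edgeR adjusted p = 0.0134), beside 0.315% of 8260 genes called lower. The size of this difference depended on the tool: DESeq2 gave -0.07 (SE 1.11, adjusted p = 0.998) and no call, from 1.36 (SE 1.10) at E6.75 and 1.44 (SE 0.60) at E7.5. In edgeR the call was lost with visceral endoderm cells kept in, at -0.17, and without E6.75 replicate 2_13 or 2_14 or E7.5 replicate 1, at -3.02, -2.40 and -2.89. For Foxa2, 0 of 6 genes were called, beside 0.889% of 8659. The difference was 2.32 (SE 0.95, edgeR adjusted p = 0.371) for Chrd, -0.94 (SE 0.31, adjusted p = 0.208) for Fst and 0.87 (SE 0.43, adjusted p = 0.515) for Lhx1. Cer1, Dkk1 and Gsc had edgeR adjusted p of 0.925, 0.929 and 0.991. With no filter edgeR gave 2.21 for Chrd and -1.01 for Fst and called both. The calls over all genes in that fit are given in the closing section on processing. For Mesp1, 0 of 5 were called, beside 0.403% of 8188. The lowest edgeR adjusted p was 0.125, for Fst at -1.18 (SE 0.32), and Lhx1 had -1.48 (SE 0.46, adjusted p = 0.229). Lhx1 was called there without E6.75 replicate 2_14, at -2.32, and Fst without E7.5 replicate 4 or 7, at -1.31 and -1.29. DESeq2, added for these tests after the data had been seen, called 0 of the genes tested for Foxa2, T and Mesp1.

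**Figure D4:**
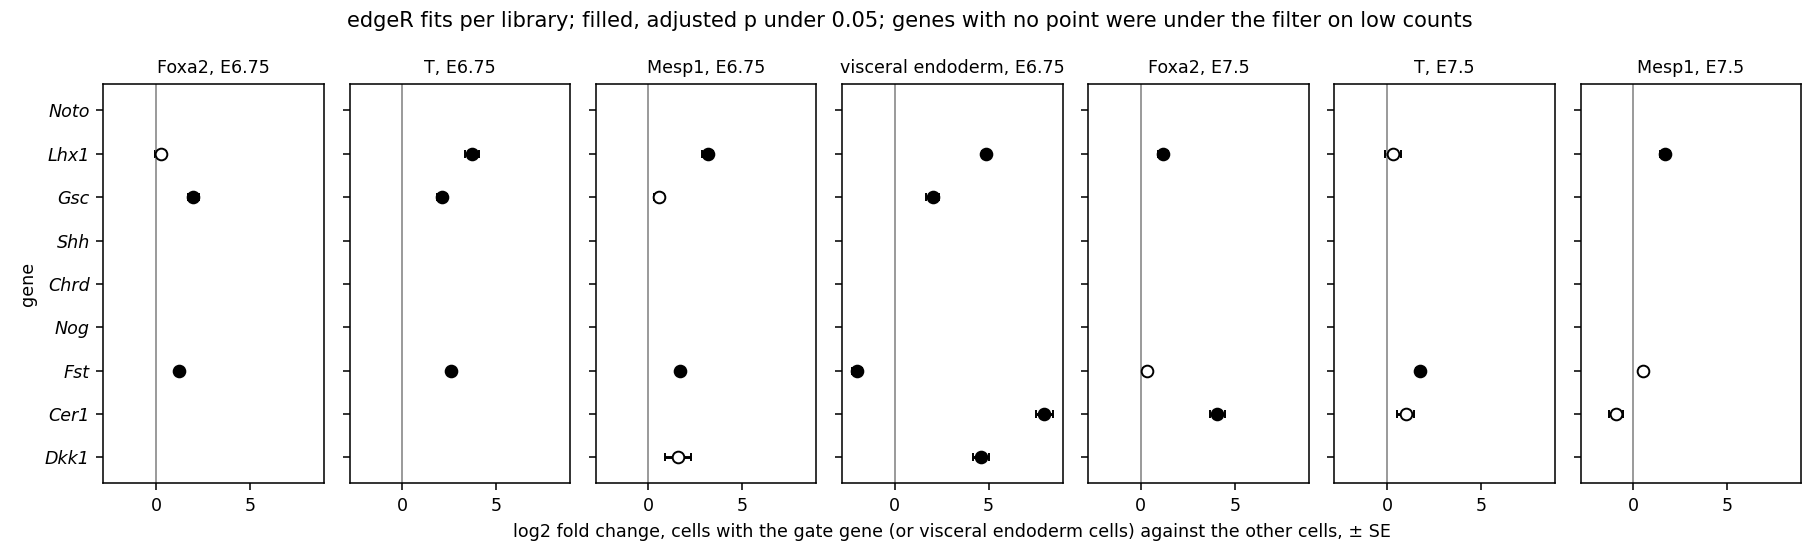
Log2 fold change (± SE) of each gene that passed the filter, in cells with Foxa2, T or Mesp1 against cells without it at each stage, and in visceral endoderm cells against all others at E6.75; filled points have an edgeR adjusted p under 0.05. Fst is to the right at E6.75 in the 3 gates and to the left in visceral endoderm, Cer1 is at 4.08 in Foxa2 cells at E7.5 and at 7.96 in visceral endoderm, and Lhx1 is filled in both Mesp1 panels.

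Visceral endoderm cells at E6.75 were another site of some of these genes, namely Lhx1, Cer1, Dkk1 and Gsc. They were compared with the remaining cells of the same 6 libraries (48 and 495 cells), a comparison added after the data had been seen. Lhx1 ran from 140 to 1408 CPM (median 630) against 0.893 to 102.1 CPM (median 5.32). Cer1 ran from 24.9 to 276 CPM (median 86.3) against 0 to 0.951 CPM, and Dkk1 from 20.8 to 325 CPM (median 57.9) against 0 to 7.10 CPM. The ranges of these 3 did not overlap, and the share of all genes with ranges apart was not counted. Gsc ran from 16.8 to 101.1 CPM against 1.02 to 31.1 CPM, and was higher in 6 of 6 libraries. The log2 fold change was 7.96 (SE 0.45, edgeR adjusted p = 4.46e-52) for Cer1, 4.86 (SE 0.20, adjusted p = 7.16e-80) for Lhx1, 4.60 (SE 0.41, adjusted p = 1.71e-24) for Dkk1 and 2.02 (SE 0.36, adjusted p = 3.45e-07) for Gsc. Fst fell, from 50.1 to 184 CPM in the other cells to between 0 and 82.4 CPM, at -2.0 (log2, SE 0.27, adjusted p = 7.19e-12) and lower in 6 of 6 libraries. All 5 genes tested were called, 4 of them higher, where 16.1% of 9177 genes were called higher and 34.1% in either direction. DESeq2 also called all 5, at adjusted p of 2.52e-44 for Cer1, 2.33e-12 for Lhx1 and 4.13e-08 for Dkk1. For Gsc and Fst, DESeq2 gave adjusted p of 1.13e-05 and 1.46e-05. Its SE was 0.56 for Cer1, 0.79 for Lhx1 and 0.88 for Dkk1, so the size of SE and p-value depended on the tool. Nog, under the filter, had 17 transcripts in 5 of 48 cells and 6 in 5 of 495, and 5.31 (SE 0.80) in the unfiltered fit, where 6 of 8 were called beside 17.9% of all genes, and DESeq2 called it too. At E7.5 only 2 such cells were kept, and both held Cer1, Dkk1 and Lhx1.

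The promoters of the 4 genes that rose together in visceral endoderm cells are shown to set their start regions side by side. Each is 300 bases from RefSeq on GRCm38.p6, 250 before the start and 50 after, read 5' to 3' along the gene. Motifs were searched on both strands. Capitals mark a match to TAATTA, the letters bound by LHX proteins, or to TATAAA, the letters of the TATA box.
Cer1 (chr4:82885102-82885401, - strand): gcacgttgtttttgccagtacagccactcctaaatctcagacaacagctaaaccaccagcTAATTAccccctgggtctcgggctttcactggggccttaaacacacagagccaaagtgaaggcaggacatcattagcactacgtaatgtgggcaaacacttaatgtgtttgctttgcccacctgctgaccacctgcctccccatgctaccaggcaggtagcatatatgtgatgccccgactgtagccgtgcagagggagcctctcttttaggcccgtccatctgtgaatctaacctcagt
Dkk1 (chr19:30549447-30549746, - strand): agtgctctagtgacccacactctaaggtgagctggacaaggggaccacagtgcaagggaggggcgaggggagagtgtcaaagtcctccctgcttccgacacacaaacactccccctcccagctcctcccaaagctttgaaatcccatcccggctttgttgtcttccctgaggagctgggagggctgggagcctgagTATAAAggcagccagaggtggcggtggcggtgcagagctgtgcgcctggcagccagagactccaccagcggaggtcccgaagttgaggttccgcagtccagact
Gsc (chr12:104473187-104473486, - strand): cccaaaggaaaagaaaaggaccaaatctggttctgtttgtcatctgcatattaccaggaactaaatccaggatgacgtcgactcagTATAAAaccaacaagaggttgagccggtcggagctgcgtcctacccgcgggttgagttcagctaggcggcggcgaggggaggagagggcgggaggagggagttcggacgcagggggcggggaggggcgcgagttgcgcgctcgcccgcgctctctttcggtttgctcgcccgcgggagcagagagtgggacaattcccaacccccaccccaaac
Lhx1 (chr11:84525485-84525784, - strand): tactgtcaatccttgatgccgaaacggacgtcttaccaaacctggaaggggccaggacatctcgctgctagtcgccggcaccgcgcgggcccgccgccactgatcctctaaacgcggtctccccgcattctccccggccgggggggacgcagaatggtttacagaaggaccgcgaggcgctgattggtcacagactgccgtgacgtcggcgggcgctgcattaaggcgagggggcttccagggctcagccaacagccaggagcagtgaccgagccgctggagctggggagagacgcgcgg
RefSeq promoters were found for 6 of the 9 genes (not Nog, Fst and Shh). Besides those letters, the search used TGTTTAC for the FOXA family, to which Foxa2 belongs, and TCACACC for the T-box proteins. It also used TAATCC for the homeobox proteins GSC and OTX, and TGTNNATT for FOXH1, a partner of SMADs. No motif contains another. Cer1 held TAATTA at bases 61 to 66 of its window, as did 5.29% of 32851 promoters of the same length. Gsc held TATAAA at bases 87 to 92 and Dkk1 at bases 197 to 202, as did 13.6% of all. No other match was found in the 6 windows, where FOXA letters occur in 3.65%, T-box letters in 3.98%, GSC and OTX letters in 7.06% and FOXH1 letters in 12.2% of all promoters. The Lhx1 and Gsc windows were rich in CG pairs, 31 and 25 of them against a median of 7 over all promoters. Dkk1 had 9 and Cer1 6. A match of letters describes the sequence only.

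Several of the 9 genes were often found in the same cell in more than 1 class. At least 3 were found in 24 of the 36 E7.5 cells with T and Foxa2 (66.7%), in 58.3% of 12 cells with Mesp1 and Foxa2 and in 41 cells with Mesp1 but no Foxa2 (32.8%). The share was 10.3% of cells with T alone, 8.33% of 12 with Foxa2 alone and 5.17% of the 116 cells with none of the 3 gate genes. The most in 1 cell was 7. At E6.75 the shares were 48.8% of 43 cells with T and Foxa2, 48.3% of 29 with Mesp1 but no Foxa2, 72.2% of 18 with Mesp1 and Foxa2 and 52.1% of 48 visceral endoderm cells. They were 8.33% of 72 cells with T alone, 5.71% of 35 with Foxa2 alone and 2.35% of the 298 cells with none. Shares follow depth, and the classes differ in depth, which is given above only for cells with T and Foxa2 and cells with none. At E6.75 the median depth was 61109 transcripts for Mesp1 without Foxa2, 45503 for T alone and 53610 for Foxa2 alone. Of the 47 E7.5 cells with Nog and the 46 with Chrd, 13 held both.

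Over all kept cells of a stage, the genes whose log-normalised level was most like that of each member were listed. They were ranked by Pearson's r over cells of all libraries and depths together, matched on neither, and with no test. At E7.5 (429 cells, 12217 genes) the nearest to Chrd were Cfap126 (0.76), Pifo (0.75), Erich2 (0.75), Foxj1 (0.75) and Drc1 (0.74). Among the nearest to Nog were Mak (0.80), Drc1 (0.74), Enkur (0.72) and Erich2 (0.71). Most of these are known as genes of cilia, and Drc1 and Erich2 were on both lists. Cer1 was nearest to Sox17 (0.56), the endoderm factor, and to Foxa1 (0.51). Dkk1 was nearest to Eda (0.48) and Spink1 (0.47), Lhx1 to Tdgf1 (0.47), the NODAL co-receptor, and Fst to Cxx1a (0.69) and T (0.62). At E6.75 (543 cells, 12699 genes) Fst was nearest to T (0.67) and Eomes (0.64). Cer1 was nearest to Sfrp5 (0.74), Hkdc1 (0.66) and Hesx1 (0.66), Lhx1 to Cyp26a1 (0.76), which degrades retinoic acid, and Gata4 (0.68), and Dkk1 to Bmp2 (0.54). Gsc was nearest to Tgfbr3 (0.55) and then to Lhx1 (0.55).

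The E7.5 cells with T and Foxa2 also held more endoderm signal than cells with none of the 3 genes. Definitive endoderm markers, a list of 6 that includes Cer1 and Gsc, summed to 976 CPM there against 266 CPM in cells with none of the 3 genes, and the 16 visceral endoderm markers to 60.9 CPM against 14.2 CPM, where visceral endoderm cells of that stage had 5717 CPM. Their part in the Cer1 difference was not tested. The 16 markers were all detected at both stages.

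Related genes were read from the same fits as 4 lists, by counts and medians only. In T cells with Foxa2 at E7.5, where 1.61% of all genes tested were called higher and 2.19% in either direction, the node and axial list (20 genes, 9 tested) had 3 higher and 0 lower, with a median log2 fold change of 0.36 against -0.01 over all genes. Foxa1 was at 5.65, Rfx3, a regulator of ciliary genes, at 1.38 and Sp5, a WNT target, at 0.90. The BMP list (24 genes, 14 tested) had 1 higher and 3 lower, with a median of -0.21. The ligand gene Bmp7 was at 1.21, while Bmp4 was at -2.02 and the BMP response genes Msx1 and Msx2 at -1.25 and -1.21. Of the other secreted antagonists (19 genes, 5 tested, median -0.10), the WNT antagonist Sfrp1 was higher at 1.13 and the NODAL antagonist Lefty2 lower at -2.66. Of the hedgehog list (15 genes, 5 tested, median -0.39), the SHH co-receptor gene Gas1 was lower at -1.16 and 0 were higher. At E6.75 this split gave 0 calls in all 4 lists.

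Between the stages, where 38.8% of all genes tested were called in either direction, the node and axial list had 7 higher and 4 lower of 15 tested, with a median of 0.00. Foxd4, at 4.58, and Foxj1, at 2.48, were among the higher genes, and Nodal, at -2.14, among the lower ones. The BMP list had 14 higher and 1 lower of 22, with a median of 0.53 against 0.03 over all genes, led by Bmp7 at 2.82, Msx2 at 2.70 and Bmp2 at 2.04, with the inhibitory Smad7 lower at -2.0. Of the other antagonists (median 0.89) 4 of 7 were higher, among them Notum, which inactivates WNT proteins, at 3.80 and Frzb at 2.27, and 1 was lower, Lefty1 at -4.05. The hedgehog list had 3 higher and 0 lower of 10 (median 0.39), a share below that over all genes, and these included Gas1 at 1.80 and Gli3 at 0.75.

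In visceral endoderm cells at E6.75, 16.1% of all genes tested were called higher and 34.1% in either direction. Foxa1 at 5.28 and Sox17 at 5.18 led the node and axial list, which had 6 higher and 2 lower of 13 and a median of 0.41, against -0.09 over all genes. The BMP list had 10 higher and 5 lower of 19 (median 0.87), led by the ligand gene Bmp2 at 5.90. Of 6 other antagonists tested (median 0.72), Sfrp1 at 4.51 and Lefty1 at 4.02 were higher and Sfrp2 lower at -2.40. The hedgehog list had 0 higher and 6 lower of 9 (median -0.82), among them Gli2 at -3.48 and Gli3 at -2.19.

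Chrd overlaps Thpo on the opposite strand, and Shh overlaps 9530036O11Rik and Gm26894. Whether the authors' counting used strand is not given in the sources used here. Thpo had 66 transcripts in all kept cells, and the other 2 genes had 8 and 2.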

How the data were processed

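The deposited values are expected counts, transcript numbers that the authors gave for every gene in every barcode after correcting unique molecular identifiers for collisions among 4096 sequences, as the values themselves show. The submitters' processing notes name bcl2fastq 2.17.1.14 and BWA 0.6.2-r126. The genome build, the annotation and the counting program are not given in the sources used here. Libraries number their barcodes alike, so shared numbers do not show shared cells.

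Spike-ins and mitochondrial genes were left out. The minimum for a kept cell was 2000 transcripts, and a visceral endoderm cell had at least 3 of 16 markers and 10 marker transcripts per 10000. No doublet caller was run. Counts were rounded, summed per library (and per gate, with the library as a term) and tested with edgeR 4.0.16 in R 4.3.3 (TMM, filterByExpr, Benjamini-Hochberg over all genes tested, threshold 0.05). The SE of an edgeR value is its absolute log2 fold change divided by the square root of the F statistic, and not an estimate printed by the model. DESeq2 1.42.0, other scalings, filters, depths and leaving out each library were alternatives. Replicate numbers pair no samples across the stages. On simulated data with 200 genes changed by 4-fold, the stage fit recovered 91% and the E7.5 Foxa2 fit 75.5%, with 9 and 5 false calls. Only genes with a mean of at least 10 counts per sum were changed, and all genes had the same spread and no library effect. These rates therefore do not cover genes under the filter, such as Chrd, Nog, Shh and Noto in the Foxa2 fit. Members and lists were chosen with earlier results of these data known. Genes named from a list were up to 3 per direction with the largest fold change among those called, and most-like genes needed r of at least 0.3 and 20 cells. Some genes that this rule selects are not reported here. Gene positions follow GENCODE on GRCm38.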

Additional observations from a re-analysis of the deposited data

Results flagged for a closer look

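The difference between cells with and without T was called as changed between the stages for Lhx1 by edgeR's interaction term (-3.39 on the log2 scale, adjusted p = 0.0134). DESeq2 gave -0.07 and no call, and edgeR lost the call with visceral endoderm cells kept in, at -0.17, and without E6.75 replicate 2_13 or 2_14 or E7.5 replicate 1. The level of Shh at E6.75 had 1 library apart from the others, replicate 2_13 at 0.182 CPM with the other 5 at 0, which is a single transcript. Any gene seen in 1 library of a group is set apart in this way, so the rate of about 1 in 20 groups that chance gives does not apply to it; 8 groups were tested. In used E7.5 barcodes under the cell minimum, which the comparisons leave out, Nog was at 19.1 CPM (5 transcripts). It was at 0 in the unused barcodes of that stage, where a count of 0 allows up to 25.1 CPM.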

How the results depend on the processing

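No paired analysis was possible because the stages share no replicate numbers; gates were compared within libraries, with the library as a replicate block, and "no block" below leaves it out. The 9 genes' fold changes kept direction and side of the threshold in 992 comparisons with an alternative, were weaker in 43, stronger in 18 and reversed in 23. Genes called between the stages were 3879, and 598 with cells thinned to 2000 transcripts. The 9 genes called were 5, against 8 with no filter, 1 when thinned, and 3 to 6 with a library left out. In Foxa2 cells at E6.75, 2 became 1 with DESeq2, 0 with no block, 4 with visceral endoderm cells kept in, 0 when thinned and 1 to 2 with a library left out. Genes called there went from 33 to between 1 (no block) and 441 (visceral endoderm kept in), through 17 (DESeq2), 94 (no filter), 3 (thinned), 71 (a stricter visceral endoderm rule) and 15 to 40 (a library left out). In Foxa2 cells at E7.5, 2 became 1 with no block, 7 with no filter, 0 when thinned and 1 to 2 with a library left out. Over all genes, 2.51% of 6457 became 49 (no block), 673 (no filter), 10 (thinned) and 89 to 177 (a library left out). In T cells at E6.75, 3 became 5 with no filter, 0 when thinned and 1 to 3 with a library left out. Genes called went from 332 to 164 (DESeq2), 103 (no block), 13 (thinned) and 189 to 353 (a library left out). In T cells at E7.5, 1 became 4 with no filter and 0 when thinned. Over all genes, 2.14% of 6022 became 68 (no block), 361 (no filter), 3 (thinned) and 84 to 148 (a library left out). In Mesp1 cells at E6.75, 2 became 1 with no block and 0 when thinned, and were 2 to 3 with a library left out. Calls over all genes went from 99 to 46 (DESeq2), 35 (no block), 262 (no filter), 2 (thinned) and 90 to 239 (a library left out). In Mesp1 cells at E7.5, 1 became 4 with no filter, 0 when thinned and 1 to 3 with a library left out. Over all genes, calls went from 386 to 925 (no filter) and 9 (thinned). In T cells with Foxa2 at E6.75, 1 became 0 with DESeq2 or no block, 2 with no filter and 0 to 1 with a library left out. Genes called went from 4 to 0 (DESeq2), 0 (no block), 36 (no filter) and 0 to 7 (a library left out). In T cells with Foxa2 at E7.5, 2 became 1 with DESeq2 or no block, 7 with no filter and 1 to 2 with a library left out. Genes called went from 136 to 87 (DESeq2), 38 (no block) and 512 (no filter). For the differences between stages with no filter, 2 were called for Foxa2, 3 for T and 2 for Mesp1, with 209, 116 and 108 genes in all; with visceral endoderm kept in, 0 were called for T, and 116 genes for Foxa2; with DESeq2, 0 for T. With a library left out, 0 to 1 were called for T and for Mesp1, and 37 to 86, 20 to 43 and 11 to 48 genes for Foxa2, T and Mesp1, against 77, 36 and 33.

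Lhx1 between the stages was 0.0312 with DESeq2, 0.69 without visceral endoderm cells and -0.47 to 0.38 with a library left out. Lhx1 in Foxa2 cells at E6.75 was -0.71 to 0.24 with a library left out. With a library left out, the Foxa2 difference was -0.74 to 0.046 for Gsc, -0.054 to 1.79 for Lhx1 and -1.11 to 0.67 for Dkk1. With visceral endoderm kept in, Lhx1 and Cer1 were -1.05 and -0.86 in the Foxa2 difference and 0.32 and 1.73 in the Mesp1 difference, and Lhx1 was 0.19 in T cells with Foxa2 at E6.75. Fst in Foxa2 cells at E7.5 was -0.22 with at least 2 Foxa2 transcripts. Fst in T cells with Foxa2 at E7.5 was -0.0115 with DESeq2 and -0.0208 to 0.30 with a library left out. With no filter, Gsc in T cells at E7.5 was -0.0124 with DESeq2, Dkk1 there -0.0294 with RLE size factors and -0.37 with no block, and Shh in Mesp1 cells at E7.5 -0.0282 with DESeq2. With no filter and DESeq2, the 9 genes called were 1 and 2 in Foxa2 and T cells at E6.75 and 3, 1, 2 and 3 in Foxa2, T, Mesp1 and T with Foxa2 cells at E7.5. In the same fits 13, 167, 202, 137, 613 and 184 genes were called. With no filter and no block, 2 were called in T and 2 in Mesp1 cells at E7.5, and 20, 240, 340 and 186 genes in Foxa2 and T cells at E6.75 and in Foxa2 and T cells at E7.5. Thinning to 2000 transcripts brought the mean share of cells with a gene at E6.75 to 2.10% for Gsc, 0.174% for Chrd, 0.353% for Nog, 11.4% for Fst and 0.728% for Dkk1. At E7.5 it brought Lhx1 to 11.6%, Chrd to 1.71%, Nog to 1.37%, Fst to 31.7%, Cer1 to 5.67% and Dkk1 to 5.29%. Nog needing 2 transcripts was at 0.724% and 3.54%. The causes were not tested. Thinning removes most of each cell's transcripts, so depth limits every count for Nog, Chrd, Shh and Noto.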
